A study of Mus musculus with 6 samples.

Results

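The Schlafen genes are a family of interferon-inducible growth and antiviral regulators, and 7 mouse members, Slfn1, Slfn2, Slfn3, Slfn4, Slfn5, Slfn8 and Slfn9, were followed in bone marrow of diabetic and wild type mice. Members were found by gene symbol among the probe sets with exactly 1 symbol in the platform annotation. Where a gene has several probe sets the set with the highest mean over the 6 arrays stands for it, but each of the 7 members had 1 set, so they made up 7 probe sets of 21789 and 7 genes of 19938. The family was put forward because the fall of Slfn5 in diabetic marrow was already known from these same arrays, so the comparison between the groups describes the family and is no independent support for that fall.

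RNA was measured on 6 single-colour Affymetrix gene arrays, 3 of wild type and 3 of diabetic marrow. The labels give the genotype as BKS.Cg-Dock7m +/+ Leprdb/JNju for wild type and BKS.Cg-Dock7m -/- Leprdb/JNju for diabetic animals, so both groups carry the BKS background name, and all animals were males of 10 weeks. Leprdb is the diabetes mutation of the leptin receptor and Dock7m a coat colour allele used as a marker in this stock. The marrow was flushed from the shafts of femurs and tibiae, received no treatment and, as far as the labels say, was not sorted. The labels do not say whether the RNA of an array came from 1 animal or several, and p-values therefore measure the spread between these samples only. In such a bulk sample, fewer cells of a type and less RNA per cell cannot be told apart.

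Schlafen proteins share an amino-terminal core with an AlbA-like fold, and several members act on transfer RNA. The mouse genes form a cluster on chromosome 11 and fall into 3 groups by protein length. Slfn1 and Slfn2 are short and carry only the core, Slfn3 and Slfn4 are intermediate, and Slfn5, Slfn8 and Slfn9 are long, with a carboxy-terminal helicase-like domain. Type I interferon raises several of them in immune cells through transcription factors that bind the interferon-stimulated response element (ISRE).

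The promoter windows of 4 members are shown because 3 of them, Slfn5, Slfn8 and Slfn9, hold the core letters of the ISRE while Slfn4, which had the third largest difference of the family, does not. Each window runs from 250 bases before to 50 bases after a transcript start in RefSeq, 5′ to 3′ on the gene's strand, and capitals mark the ISRE core. The sequence is that of the C57BL/6J reference and not of the BKS animals.
Slfn5 (GRCm38.p6, chr11:82951852-82952151, plus strand): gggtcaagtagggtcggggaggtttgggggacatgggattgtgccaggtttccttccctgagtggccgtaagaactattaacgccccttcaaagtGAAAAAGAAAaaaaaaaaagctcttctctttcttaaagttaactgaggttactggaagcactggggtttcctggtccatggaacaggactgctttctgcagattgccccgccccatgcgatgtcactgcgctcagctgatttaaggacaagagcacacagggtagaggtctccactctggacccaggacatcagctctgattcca
Slfn8 (GRCm38.p6, chr11:83020761-83021060, minus strand): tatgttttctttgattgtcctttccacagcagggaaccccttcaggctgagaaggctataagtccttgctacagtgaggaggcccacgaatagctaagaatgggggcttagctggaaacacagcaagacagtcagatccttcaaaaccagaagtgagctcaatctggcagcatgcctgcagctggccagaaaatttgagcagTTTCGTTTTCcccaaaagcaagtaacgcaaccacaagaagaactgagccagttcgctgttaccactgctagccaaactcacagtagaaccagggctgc
Slfn9 (GRCm38.p6, chr11:82991781-82992080, minus strand): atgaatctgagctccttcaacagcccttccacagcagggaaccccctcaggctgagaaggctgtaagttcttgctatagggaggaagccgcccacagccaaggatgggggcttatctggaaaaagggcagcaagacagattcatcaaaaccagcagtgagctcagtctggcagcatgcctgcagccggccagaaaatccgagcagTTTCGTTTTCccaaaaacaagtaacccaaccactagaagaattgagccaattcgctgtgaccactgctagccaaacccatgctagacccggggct
Slfn4 (GRCm38.p6, chr11:83174936-83175235, plus strand): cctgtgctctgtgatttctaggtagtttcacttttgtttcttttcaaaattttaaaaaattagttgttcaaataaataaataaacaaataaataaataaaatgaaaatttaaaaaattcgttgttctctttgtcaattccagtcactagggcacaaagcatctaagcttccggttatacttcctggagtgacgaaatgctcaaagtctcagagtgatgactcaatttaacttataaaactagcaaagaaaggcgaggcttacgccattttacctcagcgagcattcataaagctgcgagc

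RefSeq windows were found for 7 of 7 members. The ISRE core was searched as GAAANNGAAA and, on the other strand, TTTCNNTTTC. Slfn5 held GAAAAAGAAA with its first base at position -155 from the start. Slfn8 and Slfn9 held the same letters, TTTCGTTTTC, at positions -48 and -45. Their windows shared 80.8% of aligned positions, while any other pair of members shared 46.5% to 53%. A second start of Slfn8 has an overlapping window with the same match, at position -136 from that start. The windows of Slfn1, Slfn2, Slfn3 and Slfn4 had no match to these letters. Of all 32851 windows of the same length, 3.44% held the core, and of the 9655 tested genes with a window 3.55% did. Among 18 tested antiviral interferon targets with a window, 10 held it. The letters of the gamma-interferon activated site, TTCNNNGAA, which reads the same on both strands, were in none of the members' windows and in 8.3% of all windows. They were in 7.94% of the tested genes with a window and in 6 of the 18 antiviral targets. At the share over tested genes, 0 of 7 members does not set the family apart. A match in these letters is a description of the sequence and not of a bound site.

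Slfn5, a long member that is induced by interferon and acts in the nucleus, had the largest fall in the family. Its log2 signal was 9.62, 9.82 and 9.48 on wild type arrays 1, 2 and 3 and 8.42, 8.18 and 8.54 on diabetic arrays 1, 2 and 3. All diabetic values lay below all wild type values, with a gap of 0.94 between the nearest arrays of the groups. The log2 change of Slfn5, diabetic minus wild type as everywhere below, was -1.25 ± 0.12 (SE, n = 3 per group), a 2.39-fold lower signal, with a Benjamini-Hochberg adjusted p of 0.0116 over the 12029 genes tested with limma. Slfn5 ranked 13 among all tested genes in the order from the most negative change. The size of the change moved little when 1 array was left out, from -1.33 to -1.15, but the limma adjusted p, here and below adjusted by Benjamini-Hochberg over all genes tested, rose to 0.0653 without diabetic replicate 1 and to 0.0743 without diabetic replicate 2. It was 0.0962 when all 35556 probe sets were tested together.

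Slfn8, a second long member, also fell. Wild type arrays read 9.45, 9.89 and 9.51 and diabetic arrays 8.82, 8.73 and 8.82. The groups did not overlap, the diabetic arrays lay close together with an SD of 0.055, and wild type replicate 2 stood above the other wild type arrays. The log2 change of Slfn8 was -0.82 ± 0.11 (SE, n = 3 per group), or 1.77-fold lower, and its limma adjusted p was 0.0312. That adjusted p was 0.189, 0.147 and 0.134 without diabetic replicate 1, 2 or 3 and 0.172 over all probe sets, while the change stayed between -0.91 and -0.69 in the 6 fits without 1 array.

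Slfn9, the third long member and the neighbour of Slfn8 in the cluster, had a smaller difference with little spread. Its log2 signal was 8.89, 8.96 and 8.99 in wild type and 8.65, 8.62 and 8.66 in diabetic marrow. The groups were apart by 0.23, and the SD was 0.048 in wild type and 0.022 in diabetic arrays. The log2 change of Slfn9 was -0.31 ± 0.06 (SE, n = 3 per group) with a 95% interval from -0.44 to -0.17, and its limma adjusted p was 0.104, so it did not pass. Slfn8 minus Slfn9 within an array was 0.67 ± 0.22 (SD, n = 3) on wild type and 0.15 ± 0.03 on diabetic arrays, a difference of -0.52 between 2 members whose promoter windows are alike. This pair was chosen after its values were seen and was not tested.

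**Figure D1:**
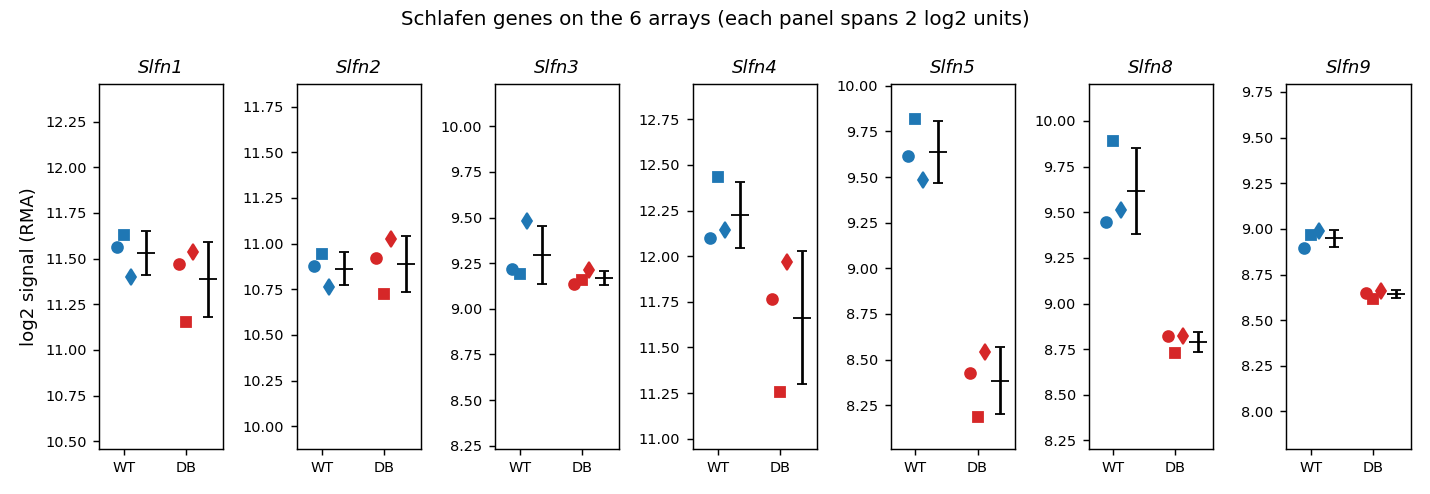
Log2 signal of each Schlafen member on the 3 wild type (WT, blue) and 3 diabetic (DB, red) arrays, with circles, squares and diamonds for replicates 1, 2 and 3, and the mean ± SD in black. Every panel spans the same height in log2 units, and the groups are apart for Slfn4, Slfn5, Slfn8 and Slfn9 and overlap for Slfn1, Slfn2 and Slfn3.

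Of the intermediate members, Slfn4, a gene of myeloid cells that is regulated during macrophage activation, had the larger difference. Its log2 signal was 12.10, 12.43 and 12.15 in wild type and 11.76, 11.26 and 11.97 in diabetic marrow. The groups were separate by only 0.13, and diabetic replicate 2 lay well under the other diabetic arrays. The log2 change of Slfn4 was -0.56 ± 0.18 (SE, n = 3 per group) with a 95% interval from -0.97 to -0.16, and its limma adjusted p of 0.534 did not pass. Without diabetic replicate 2 the change was -0.36, and over the 6 fits that each left out 1 array it ran from -0.72 to -0.36.

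Slfn3, known from studies of T cells and of gut epithelium, read 9.22, 9.19 and 9.48 in wild type and 9.14, 9.16 and 9.21 in diabetic marrow. The diabetic array with the highest value lay between the wild type arrays, so the groups overlapped. The log2 change of Slfn3 was -0.13 ± 0.09 (SE, n = 3 per group) with a 95% interval from -0.33 to 0.07, and without wild type replicate 3, the highest array, it was -0.04.

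The short members, which hold back the growth of T cells, did not pass the test. Slfn1 read 11.56, 11.63 and 11.40 in wild type and 11.47, 11.15 and 11.53 in diabetic marrow. Its log2 change was -0.14 ± 0.11 (SE, n = 3 per group) with a 95% interval from -0.40 to 0.11, and it was -0.03 without diabetic replicate 2. Slfn2, which keeps T cells quiescent and whose loss in mice leaves them prone to infection, read 10.88, 10.94 and 10.76 in wild type and 10.92, 10.72 and 11.02 in diabetic marrow. The groups overlapped fully, and the change of 0.03 ± 0.09 (SE, n = 3 per group), with a 95% interval from -0.18 to 0.24, turned sign without wild type replicate 3 or diabetic replicate 3, where it was -0.02 and -0.04. The intervals leave room for changes of these sizes, so the data do not show that Slfn1, Slfn2 and Slfn3 were equal between the groups. By limma their adjusted p values were 0.926, 0.993 and 0.8997.

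Counted over the family, 2 of 7 members passed the adjusted threshold of 0.05 by limma, both lower in diabetic marrow. Over all 12029 genes tested, 0.333% passed in that direction and 0.432% in either. An unadjusted p under 0.05 with a lower level was seen in 4 of 7 members and in 3.2% of all genes tested. In the same 4 members the diabetic arrays all lay below the wild type arrays, and 5.39% of all genes tested did the same, while 12.4% had separate groups in either direction. The change was negative in 6 of 7 members and in 47.7% of all genes tested, and the median change was -0.31 over the members and 0.0046 over all genes. All 7 members were tested, with the dimmest, Slfn9, at a mean of 8.80 against the level filter of 7.50, and none depended on 1 group to pass it. Since the family was chosen with the fall of Slfn5 known, these counts are a description.

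The members had estimated log2 changes from -1.25 for Slfn5 to 0.03 for Slfn2. Whether they truly changed unequally cannot be settled by the test below. To compare them without array-wide effects, the signal of each other member was subtracted from that of Slfn5 on the same array. Slfn5 minus Slfn2 was -1.22 ± 0.09 (SD, n = 3) on wild type and -2.51 ± 0.03 on diabetic arrays, a difference of -1.28. Slfn5 minus Slfn1 and Slfn5 minus Slfn3 differed by -1.11 and -1.13 between the groups, Slfn5 minus Slfn9 by -0.95 and Slfn5 minus Slfn4 by -0.69. The smallest was that of Slfn5 minus Slfn8, the other called member, at -0.43, from 0.02 ± 0.13 to -0.41 ± 0.13. In each of these 6 comparisons the groups did not overlap, and the two-sided exact permutation test gave p = 0.1, adjusted p = 0.1 after Benjamini-Hochberg over the 6, which is the smallest value 3 against 3 arrays can give, so the test cannot pass 0.05. Slfn5 was chosen for its fall, and its lower position in each pair is a description.

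Within a group, most members stood high or low together on some arrays. Diabetic replicate 2 was the lowest diabetic array for 6 of 7 members, the exception being Slfn3, and diabetic replicate 3 was the highest for 6 of 7, the exception being Slfn8. Wild type replicate 2 was the highest wild type array for 5 of 7 members, the exceptions being Slfn3 and Slfn9. The median log2 signal over all probe sets differed little between arrays, from 7.67 to 7.73.

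**Figure D2:**
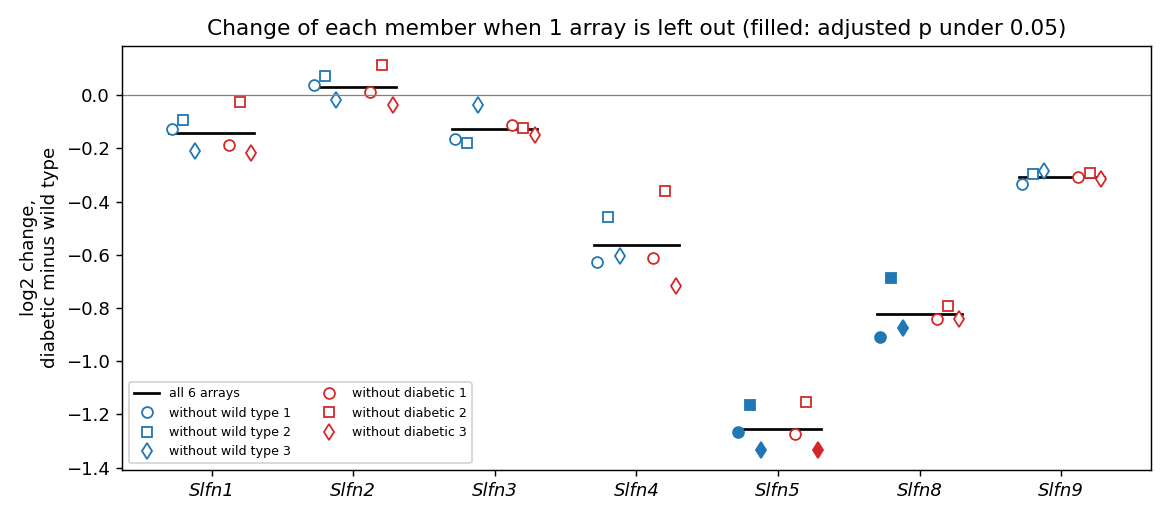
Log2 change of each member with all 6 arrays (black line) and with 1 array left out (blue for a wild type array, red for a diabetic one, by replicate number), filled where the adjusted p of limma is under 0.05. Slfn5 stays between -1.33 and -1.15 but is unfilled without diabetic replicate 1 or 2, and Slfn8 is unfilled without any 1 of the diabetic arrays.

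Other genes with a Schlafen name were read beside the members. Slfn10-ps, a transcribed pseudogene that lies between Slfn8 and Slfn2, read 8.11, 8.34 and 8.01 in wild type and 7.77, 8.06 and 7.75 in diabetic marrow. Its change was -0.29 ± 0.11 (SE, n = 3 per group) and did not pass (limma adjusted p = 0.641), and diabetic replicate 2 lay above wild type replicate 3. Slfn5os, a non-coding gene named for the strand opposite Slfn5, had means of 6.89 ± 0.08 and 6.84 ± 0.08 (SD, n = 3 each) in wild type and diabetic marrow, below the level filter. Slfnl1, a Schlafen-like gene on chromosome 4 outside the cluster, had a change of 0.03 ± 0.08 (SE, n = 3 per group). The members are close paralogs, and a signal may hold RNA of a relative where probes match both, which probe set values cannot separate.

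The members lie side by side on chromosome 11, in the RefSeq order Slfn5, Slfn9, Slfn8, Slfn10-ps, Slfn2, Slfn1, Slfn4 and Slfn3. In that order the changes of the tested genes were -1.25, -0.31, -0.82, -0.29, 0.03, -0.14, -0.56 and -0.13, so the called members are at the Slfn5 end, with Slfn9 between them. The 10 tested genes on either side, protein-coding or of the RefSeq type misc_RNA, served as a comparison. Of these 20 neighbours 9 were lower and 0 passed by limma, while 2 had an unadjusted p under 0.05, and their median change was 0.019. Over all 12029 genes tested 47.7% were lower, 0.432% passed in either direction and 864 had an unadjusted p under 0.05. At that share of passing genes, 0 of 20 is no contrast to the cluster. The nearest gene before Slfn5, Nle1, a ribosome assembly factor, had 0.02 ± 0.06 (SE, n = 3 per group). The nearest after Slfn3, Ap2b1, a subunit of the clathrin adaptor AP-2, had -0.07 ± 0.06. The neighbours with the largest differences were chemokine and myeloid genes farther along. Ccl3, a macrophage chemokine, had 0.79 ± 0.37 with diabetic arrays from 10.32 to 11.76, and Wfdc17 had -0.35 ± 0.28. Ccl6, a myeloid chemokine and 1 of the 2 neighbours with an unadjusted p under 0.05, had 0.34 ± 0.06 with separate groups and a limma adjusted p of 0.1002, and the other, Tmem132e, had -0.23 ± 0.09.

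**Figure D3:**
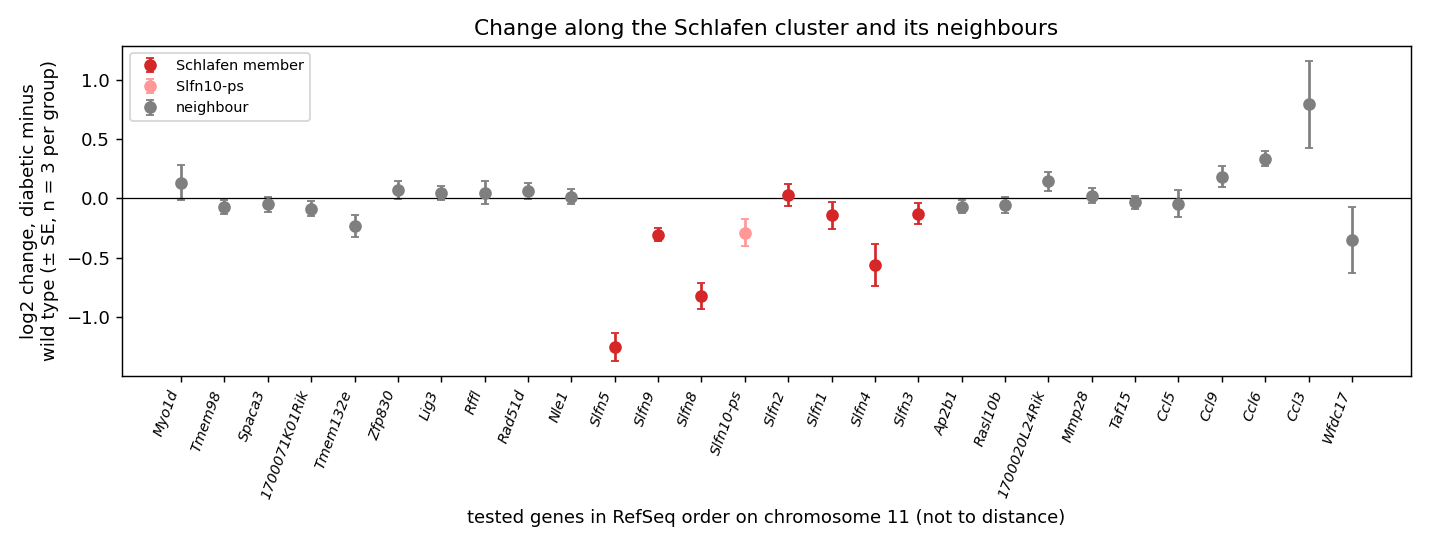
Log2 change ± SE (n = 3 per group) of the tested genes in RefSeq order along chromosome 11, with the 7 Schlafen members in red, Slfn10-ps in pink and 10 neighbours on either side in grey. The x axis gives order and not distance. Slfn5 and Slfn8 lie lowest at -1.25 and -0.82, and the 20 neighbours run from -0.35 to 0.79 with a median of 0.019.

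Schlafen genes are targets of interferon, so the rest of that pathway was read by role, with 44 tested genes. The list was chosen with earlier results of these data known, so its counts are a description. Interferon receptors did not move past the threshold. All 4 tested receptor chains had changes between -0.01 and 0.21, with Ifnar1 and Ifnar2, the chains of the type I receptor, at -0.01 ± 0.06 and 0.02 ± 0.06 (SE, n = 3 per group) and Ifngr1, of the type II receptor, at 0.21 ± 0.07. Of the 3 receptor kinases 0 passed by limma and 1, Jak2, had an unadjusted p under 0.05, at 0.17 ± 0.06, while Jak1 and Tyk2 were at 0.02 ± 0.07 and -0.03 ± 0.08. Of the receptors, likewise, 0 passed and 1, Ifngr1, had an unadjusted p under 0.05. Over all 12029 genes tested 0.432% passed in either direction and 864 had an unadjusted p under 0.05. At that share, 0 passing in lists this small does not set these roles apart.

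Among 6 tested transcription factors 3 passed, all lower, while 5 had a negative change and 4 of these an unadjusted p under 0.05. Over all genes tested 0.333% passed lower, 47.7% had a negative change and 3.2% were lower at an unadjusted p under 0.05. Irf9 and Stat2, which act together at the ISRE, were at -0.78 ± 0.09 and -0.49 ± 0.07 (SE, n = 3 per group), and Irf7, which amplifies interferon production, was at -1.30 ± 0.17. By limma their adjusted p values were 0.0184, 0.0389 and 0.0260. Irf1, which answers mainly to interferon gamma, was at -0.27 ± 0.11 and did not pass. Of the 5 inhibitors 1 passed, Usp18, which removes ISG15 and dampens the type I receptor, at -1.42 ± 0.16 (SE, n = 3 per group). A negative change was seen in 2 of the 5, and the same 2 had an unadjusted p under 0.05. Socs1, a blocker of JAK kinases, was at -0.27 ± 0.07 with separate groups and did not pass (limma adjusted p = 0.282). Ptpn6 and Pias1 were at 0.06 ± 0.10 and 0.03 ± 0.06.

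Of 26 tested antiviral targets 14 passed by limma, all lower, and 26 had a negative change. Over all genes tested 0.333% were called lower and 47.7% had a negative change. The median change was -0.78 over the targets and 0.0046 over all genes. Since the list was chosen with earlier results known, this contrast is a description. The 4 with the smallest p were Ifit3, at -1.78 ± 0.16, Ifi27l2a, at -1.62 ± 0.16, Oas1a, at -0.99 ± 0.10, and Zbp1, a sensor of Z-form nucleic acid, at -0.97 ± 0.10 (SE, n = 3 per group). In this range the change of Slfn5 lay between those of Ifi27l2a and Oas1a, and that of Slfn8 near the median of the targets. Slfn1 and Slfn3 stood beside the targets with the smallest differences, Samhd1 at -0.10 ± 0.07, Samd9l at -0.12 ± 0.09 and Isg20 at -0.12 ± 0.12. Slfn2, at 0.03, lay outside the range of the 26 targets. Over the whole list 18 of 44 passed, all lower, and this count was 6 without wild type replicate 2 and 3, 0 and 3 without diabetic replicate 1, 2 or 3.

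**Figure D4:**
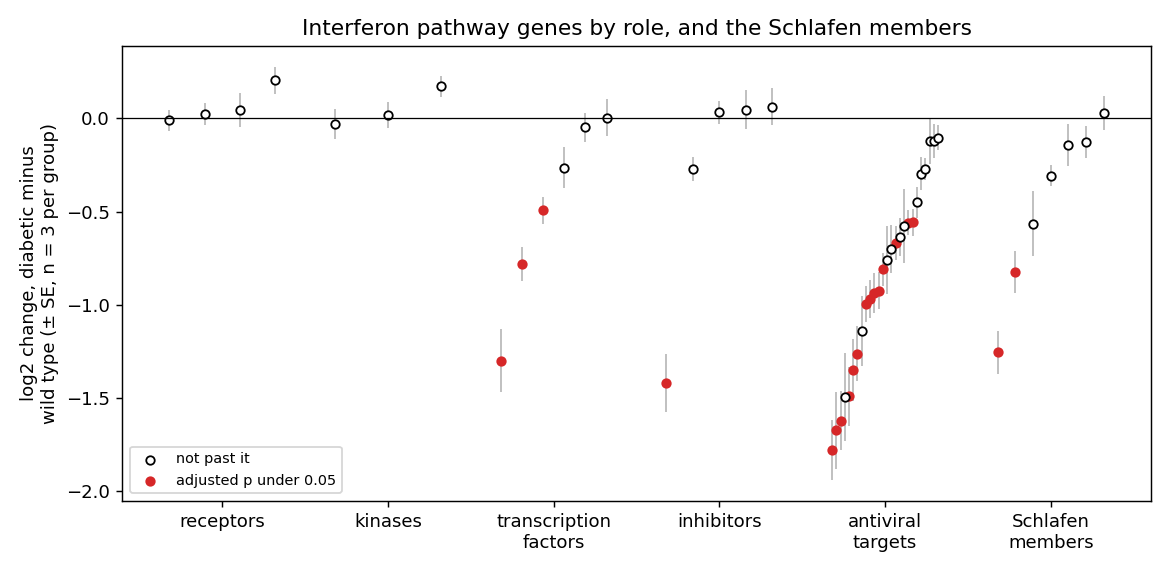
Log2 change ± SE (n = 3 per group) of tested interferon pathway genes grouped by role and, at the right, of the 7 Schlafen members, with filled red points for an adjusted p under 0.05 in limma. Receptors and kinases lie near 0 and the 26 antiviral targets spread from -1.78 to -0.10. The Schlafen members run from -1.25 to 0.03.

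Genes whose pattern over the 6 arrays was most like that of a member were named by the root mean square distance between log2 profiles after the mean of each gene was removed. For Slfn5 these were Ifi207 at a distance of 0.11, Oasl2 at 0.16 and Ifi205 at 0.16, with changes of -1.20, -1.35 and -1.53. For Slfn8 they were Rnf213, Irf9 and Oasl1, each at a distance of 0.09 or 0.10, and for Slfn4 Trim30a at 0.13, Ifitm3 at 0.15 and Ms4a6d at 0.15. The profile of Slfn9 was nearest to those of Igf1, Xcl1 and Ddx24, at 0.028, 0.030 and 0.037. The nearest to Slfn3 were Mcm5, Taf10 and Cgref1, to Slfn1 Cmya5, Slc25a27 and Nampt, and to Slfn2 Map4, Plbd1 and Ifngr2. All genes were compared over the same 6 arrays, and a large group difference in a member brings genes with a like difference near to it.

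Unsorted marrow holds many cell types that express Schlafen genes, so 10 lists of cell type markers were read beside the members. Of 67 tested markers 0 passed by limma, while 10 lower ones, or 14.9%, and 3 higher ones, or 4.48%, had an unadjusted p under 0.05. Over all genes tested these shares were 3.2% and 3.98%, and 0.432% passed in either direction. At that share, 0 of 67 passing does not set the markers apart. The median change of the markers was -0.03. Above the level filter lay 11 of 11 neutrophil markers and 7 of 7 measured erythroid markers. So did 4 of 6 skeletal muscle markers and 12029 of all 19938 genes, so passing it does not identify a tissue.

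T cells, in which short Schlafen genes are best known, had 8 tested markers, 5 of them lower, with a median change of -0.04, and the mean of the list was 8.90 to 9.25 over wild type and 8.90 to 9.19 over diabetic arrays. Cd4, also made by some myeloid cells, was at -0.53 ± 0.09 (SE, n = 3 per group) with separate groups and did not pass, Cd8a and Cd5 were at 0.16 ± 0.17 and 0.10 ± 0.10, and Cd3d lay below the level filter. NK cell markers had a median change of -0.0068 over 5 tested genes, with Eomes at 0.24 ± 0.10, Ncr1 at -0.12 ± 0.13 and Nkg7 at -0.05 ± 0.14.

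Monocyte and macrophage markers, relevant to Slfn4, were 4 lower and 4 higher among 8 tested, with a list mean of 10.45 to 10.58 in wild type and 10.40 to 10.54 in diabetic arrays. C1qb, Siglec1 and Cd68, genes of tissue macrophages, were separate and lower, at -0.62 ± 0.12, -0.34 ± 0.07 and -0.25 ± 0.07 (SE, n = 3 per group), and did not pass. Siglec1 is also a known interferon target. On the other side of the list F13a1, a monocyte gene, was at 0.28 ± 0.10, Adgre1, which encodes a macrophage surface receptor, at 0.27 ± 0.14 and Ccr2 at 0.05 ± 0.10, with overlapping groups, and Cx3cr1 was at 0.20 ± 0.09 with separate groups. Ms4a7 and Cd14 lay below the level filter. Of 11 neutrophil markers 7 were lower, with a median change of -0.0078 and a list mean of 13.13 to 13.22 in wild type and 13.06 to 13.27 in diabetic arrays, with the 3 of smallest p, Retnlg, S100a8 and Camp, at 0.14 ± 0.08, 0.05 ± 0.08 and 0.04 ± 0.07 and Elane and Ly6g at -0.05 ± 0.10 and -0.05 ± 0.10.

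B cell markers were lower in 8 of 8 tested genes, with a median change of -0.25 and a list mean of 10.53 to 11.65 in wild type and 10.69 to 11.07 in diabetic arrays, so the groups overlapped. Rag1, Vpreb3 and Ebf1 were at -0.60 ± 0.21, -0.50 ± 0.32 and -0.45 ± 0.30 (SE, n = 3 per group). Wild type replicate 3 was the lowest wild type array for each of these, with Ebf1 at 11.92, 11.74 and 10.62 on wild type arrays 1, 2 and 3. The list mean of that replicate, 10.53, lay below those of all diabetic arrays, and the reason was not tested. Plasma cell markers were lower in 5 of 5, with a list mean of 9.24 to 9.63 in wild type and 9.08 to 9.24 in diabetic arrays, and Derl3, Sdc1 and Mzb1 at -0.35 ± 0.11, -0.23 ± 0.08 and -0.23 ± 0.16. Dendritic cell markers had a list mean of 9.47 to 9.52 in wild type and 9.37 to 9.42 in diabetic arrays, which did not overlap. Itgax and Tcf4 were at -0.37 ± 0.07 and -0.21 ± 0.07 and Flt3 at 0.23 ± 0.06. Of the 7 tested dendritic cell markers 4 were lower, with a median change of -0.07. The groups were separate with diabetic lower in 2 of them and with diabetic higher in 1. Over all genes tested 5.39% were separate with diabetic lower and 12.4% in either direction. The plasma cell list means touched, with the highest diabetic array at the level of the lowest wild type array. No marker of these lists passed, where 0.432% of all genes tested did. The part of these cell types in the fall of Slfn5 and Slfn8 was not tested.

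Erythroid markers had a median change of 0.04 over 7 tested genes, with Tfrc, Alas2 and Car2 at 0.16 ± 0.16, 0.04 ± 0.08 and 0.05 ± 0.11 (SE, n = 3 per group). Megakaryocyte markers had a median of -0.09 over 4, with Itga2b, Gp9 and Ppbp at 0.07 ± 0.12, -0.11 ± 0.20 and -0.11 ± 0.25. Skeletal muscle markers, a sign of tissue around the bone, had a median of 0.02 over 4, with Mb, Tnnt3 and Ckm at 0.06 ± 0.09, 0.03 ± 0.08 and 0.01 ± 0.08, and a list mean of 7.94 to 8.12 in wild type and 8.01 to 8.09 in diabetic arrays.

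Slfn2 is known for T cell quiescence and for shielding transfer RNA, and genes of these functions were read as well. Of 8 tested quiescence genes 3 were lower and 0 passed or had an unadjusted p under 0.05 in limma, with a median change of 0.07. Tsc1, an inhibitor of mTOR, was at -0.13 ± 0.06, Cdkn1b, a cell cycle inhibitor, at 0.14 ± 0.07 and Tob1 at 0.13 ± 0.07 (SE, n = 3 per group). Of 4 tested genes of transfer RNA modification and cleavage 1 was lower, Trmt1, a transfer RNA methyltransferase, at -0.14 ± 0.06 (limma adjusted p = 0.640). It had an unadjusted p under 0.05, and 0 of the 4 passed. Over all 12029 genes tested 0.432% passed in either direction and 864 had an unadjusted p under 0.05. Counts this small do not set either list apart. Rnh1, the ribonuclease inhibitor, was at 0.06 ± 0.06 and Trdmt1 at 0.07 ± 0.06.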

How the data were processed

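The authors deposited log2 signals of probe sets, and the submitters' processing notes name RMA and Affymetrix Expression Console, with no version. RMA makes the distributions of the arrays equal at the level of single probes, so a shift shared by most genes cannot be seen. The probe set values used here were not exactly equal in distribution, with medians from 7.67 to 7.73. Precision is limited by having 3 arrays per group.

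Of 35556 probe sets, 21789 had 1 symbol and 1621 several, and none of the latter carried a Schlafen name. Genes with a mean at or above 7.50, the 40th percentile of the 23410 named sets, were tested, 12029 in all, and for each the set with the highest mean was used. Groups came from the sample titles and were compared with limma 3.58.1 (lmFit, eBayes) under R 4.3.3, with the data.table package at version 1.17.8, with no covariate, all 6 arrays and Benjamini-Hochberg adjustment over all genes tested. Members below the filter would have been fitted without it, as Slfn5os was. The members, lists and naming rule were chosen with earlier results of these data known. The rule named the members, other Slfn symbols, up to 4 interferon pathway genes per role and 3 markers per list by smallest p, the neighbours with the largest changes and the 3 nearest profiles per member. Others, such as F13a1, Adgre1, Ccr2, Cx3cr1, Elane, Ly6g, Ccl6, Tmem132e, Nle1, Ap2b1, Samhd1, Samd9l and Isg20, were named after their values were seen. Gene order came from RefSeq GRCm38.p6, and promoter windows from RefSeq were searched in Python 3.11.15 with Biopython 1.88 (global alignment) and figures drawn with matplotlib 3.10.9. The fit, the exact test and the motif search were tested on simulated data. Alternatives were other level filters, scalings, probe set choices, variance models, array weights, a replicate block, a test of all probe sets and fits without each array in turn.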

Additional observations from a re-analysis of the deposited data

How the results depend on the processing

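The count of Schlafen genes past the adjusted threshold was 2 with all 6 arrays and lay between 0 and 2 in the fits without 1 array, while that of all genes, 52, ran from 3 to 70 and that of the interferon pathway list, 18, from 0 to 20. The members' count was 0, 0 and 1 without diabetic replicate 1, 2 or 3, and that of all genes was 5, 3 and 12 there and 13 without wild type replicate 2. With array weights the counts were 4 members, 1878 genes and 33 list genes. The estimation of those weights stopped short of convergence, and they ran from 0.251 for wild type replicate 3 to 11.7 for wild type replicate 2. With all probe sets tested the counts were 0, 1 and 0, and at an unadjusted p under 0.05 they were 4, 2056 and 31 in limma. With a replicate block they were 0, 2 and 0, and 4, 828 and 30 at an unadjusted p under 0.05, and the smallest adjusted p of a member by limma was 0.0797, that of Slfn5. Same-numbered arrays had correlations of deviations of 0.33, -0.04 and -0.05, and 2 of 6 arrays correlated best with their own number. With 3 arrays per group these values cannot decide whether the numbers pair the arrays, so the replicate block is not set aside. The sign of Slfn2 turned with array weights, where it was -0.022, and without wild type replicate 3 or diabetic replicate 3, at -0.020 and -0.038 in a range of -0.038 to 0.11 over the fits without 1 array, and the cause was not tested. The count of members was 2 under each of the other alternatives, namely both other level filters (none, or the 60th percentile), both other scalings (quantile, median), averaged probe sets, and eBayes with a trend and robust settings. The 6 other members kept a negative change in all 15 alternatives, and with array weights Slfn4 and Slfn9 also passed. With 3 arrays per group a change the size of those of Slfn1, Slfn2 or Slfn3 lay within the spread.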
